A study of Mus musculus with 34 samples.

Results

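The untreated pre-B leukaemia lines Bin-2 and 8093 were compared on the arrays taken at day 0, before nilotinib or lonafarnib was added. The members were found by their labels as start arrays, 12 of the 34 arrays of the study, of which 6 held Bin-2 RNA and 6 held 8093 RNA. Both lines grew out of pre-B acute lymphoblastic leukaemias of mice that carry a BCR/ABL transgene. BCR/ABL is the kinase made by the Philadelphia chromosome. Bin-2 came from a mouse of mixed genetic background and 8093 from a mouse of an inbred C57Bl/6J background (f11). Each line stands for 1 leukaemia, so that the line, its genetic background and the leukaemia it came from cannot be told apart. All cells were kept with recombinant IL-3 (10 ng/ml) and 50 uM beta-mercaptoethanol over irradiated embryonic mouse fibroblasts, and only floating or loosely attached cells were collected. In each line 3 of the start plates belonged to the nilotinib course (50 nM to follow in Bin-2, 20 nM in 8093) and 3 to the lonafarnib course (0.25 uM to follow in Bin-2, 1 uM in 8093), and no drug had been given to any of them. The replicates were separate plates of the same line, so p-values measure the spread between plates and not between leukaemias.

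Pre-B cells are B-lineage precursors that have rearranged the heavy chain of their antibody and display it with a surrogate light chain as the pre-B receptor. The adaptor BLNK couples this receptor to the kinases SYK and BTK and is needed for the receptor's signal to end proliferation and move the cell on to light-chain rearrangement. BCR/ABL signals through RAS, PI3 kinase and STAT5 and can replace the cytokine signals that pre-B cells depend on. Mature B cells, macrophages and mast cells share some of the genes of this lineage, since all are blood cells.

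The signal of a gene is given as log2, 1 probeset per gene, and a difference is Bin-2 minus 8093, as the log2 difference of the means of 6 and 6 arrays ± the standard error (SE) of the fit. A gene was called at a limma adjusted p below 0.05 over 19938 genes. Signals of a probeset can be compared between the lines but not with those of another probeset. A background level of 4.57 was set as the 95th percentile of 1027 olfactory receptor genes, which are not expected in blood cells. In bulk RNA, fewer cells of a type and less RNA per cell cannot be told apart.

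Defining genes of the pre-B stage were strongly detected in both lines. Igll1, a surrogate light chain, had signals of 11.99, 12.04 and 12.09 (lowest, median and highest of 6 arrays) in Bin-2, against 11.92, 12.17 and 12.22 in 8093. Vpreb1, its partner, averaged 10.19 ± 0.24 in Bin-2 and 10.20 ± 0.22 in 8093 (SD, n = 6 each). The lines overlapped in both genes. The B-lineage factors Ebf1 (0.03 ± 0.06) and Pax5 (-0.15 ± 0.11), the lymphoid factor Ikzf1 (-0.08 ± 0.06) and the recombinase Rag1 (0.16 ± 0.09) were not called, at adjusted p of 0.812, 0.387, 0.414 and 0.263. The arrays of a line resembled each other more than those of the other line, with a lowest correlation of 0.9888 within a line and a highest of 0.9824 between lines. The first principal component, with 52.2% of the variance, separated the lines.

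Of the 19938 genes, 4517 were called (22.7%), 2161 higher in Bin-2 (10.8%) and 2356 lower (11.8%). Most of these differences were small, with 3270 of the called genes (72.4%) under 1.5-fold. At least 2-fold differences were called in 445 genes (2.23%), 219 higher in Bin-2 (1.1%) and 226 lower (1.13%). In 439 of these the 6 Bin-2 arrays and the 6 8093 arrays did not overlap, as was so in 14% of all genes. The median difference over all genes was 0.00. Of the 445 genes, 106 had a mean above the background level in 1 line only, 48 in Bin-2 and 58 in 8093, and 332 had one in both.

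**Figure D1:**
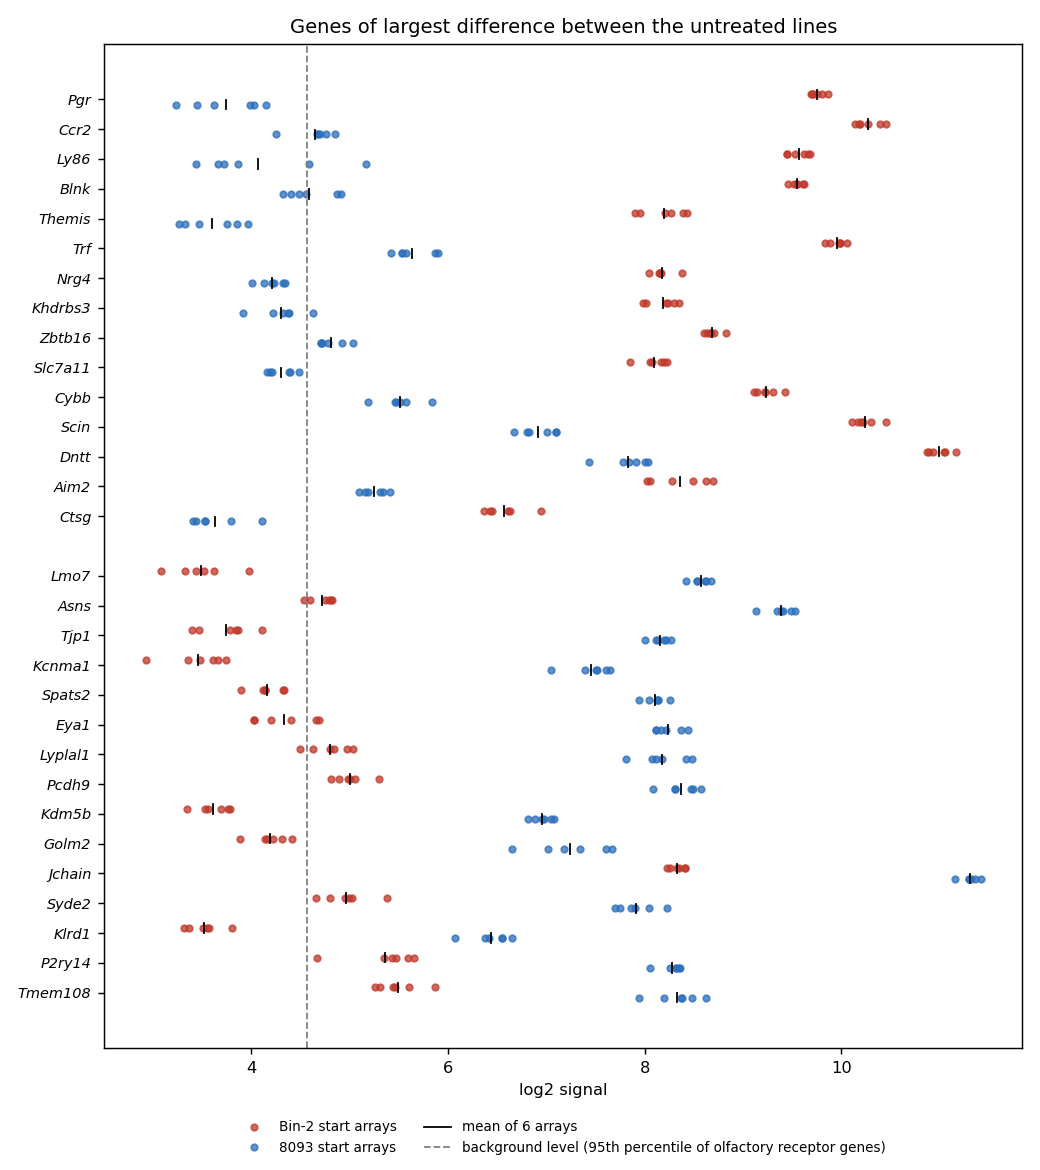
Log2 signal (horizontal axis) of the 15 named genes of largest difference in each direction, with Bin-2 arrays (red, upper row of each gene) and 8093 arrays (blue, lower row), black ticks at the means and a dashed line at the background level of 4.57. No gene shown has an array of one line within the range of the other, and the mean lies under the background level in 8093 for 7 of the upper 15 genes (such as Pgr at 3.75) and in Bin-2 for 8 of the lower 15 (such as Lmo7 at 3.49).

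The 3 largest differences towards Bin-2 among the named genes were in Pgr, Ccr2 and Ly86. Pgr, the progesterone receptor, had signals of 9.69, 9.73 and 9.86 (lowest, median and highest) in Bin-2, against 3.24, 3.80 and 4.15 in 8093, a difference of 6.01 ± 0.14 (adjusted p = 3.43e-12). All 8093 arrays lay under the background level, so the size of this difference is not exact. Of the 30 named genes of largest difference, 7 of those higher in Bin-2 had an 8093 mean under that level and 8 of those lower had a Bin-2 mean under it, and the same holds for their sizes. Ccr2, the chemokine receptor that draws monocytes out of the marrow, had 10.14, 10.23 and 10.45 in Bin-2, against 4.25, 4.69 and 4.86 in 8093 (5.62 ± 0.09, adjusted p = 1.59e-13). Ly86, the secreted partner of the B-cell receptor RP105, had 9.44, 9.58 and 9.68 in Bin-2, against 3.44, 3.80 and 5.17 in 8093 (5.49 ± 0.21, adjusted p = 4.32e-10). Each of the 6 Bin-2 arrays stood more than 4 log2 units above every 8093 array in these 3 genes.

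Blnk, the adaptor of the pre-B receptor described above, had signals of 9.46, 9.55 and 9.62 in Bin-2, against 4.32, 4.52 and 4.92 in 8093, where its mean of 4.59 equalled the background level within its SD of 0.25. The difference was 4.96 ± 0.07 (adjusted p = 1.44e-13), 4.76 in the nilotinib starts and 5.16 in the lonafarnib starts. Dntt, the polymerase TdT that adds bases at rearranging antigen receptor joints, had 10.87, 10.99 and 11.16 in Bin-2, against 7.44, 7.87 and 8.04 in 8093 (3.16 ± 0.09, adjusted p = 3.79e-11). Unlike Blnk, Dntt was well above background in both lines.

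Themis, a signalling protein of developing T cells, averaged 8.19 ± 0.22 in Bin-2 and 3.61 ± 0.29 in 8093 (SD, n = 6 each), and Zbtb16, the transcription factor PLZF of innate-like lymphocytes and germ cells, 8.69 ± 0.08 and 4.81 ± 0.14 in the same order of lines. Trf, the iron carrier transferrin, differed by 4.32 ± 0.09, the growth factor Nrg4 by 3.97 ± 0.08 and the RNA-binding protein Khdrbs3 by 3.87 ± 0.10. Cybb, the membrane subunit of the phagocyte NADPH oxidase, differed by 3.73 ± 0.10, Scin, an actin-severing protein, by 3.32 ± 0.09, the cytoplasmic DNA sensor Aim2 by 3.11 ± 0.12 and the granule protease Ctsg by 2.94 ± 0.11. Of these, Themis, Nrg4, Khdrbs3 and Ctsg were under the background level on average in 8093. In all 9 genes every Bin-2 array lay above every 8093 array.

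The largest differences towards 8093 among the named genes were in Lmo7, Asns and Tjp1, and Asns is described with its pathway further on. Lmo7, a LIM-domain protein of cell junctions, had signals of 3.09, 3.48 and 3.98 in Bin-2, against 8.42, 8.58 and 8.68 in 8093 (-5.07 ± 0.12, adjusted p = 2.69e-12). Tjp1, the tight junction scaffold ZO-1, had 3.40, 3.82 and 4.11 in Bin-2, against 8.01, 8.17 and 8.27 in 8093 (-4.41 ± 0.11, adjusted p = 8.15e-12). Both were under the background level in all 6 Bin-2 arrays. Kcnma1, a calcium-activated potassium channel, differed by -3.99 ± 0.14, but its other probeset by -0.17 with an adjusted p of 0.677. Eya1, a transcriptional coactivator with phosphatase activity, differed by -3.90 ± 0.12, the protocadherin Pcdh9 by -3.37 ± 0.08 and the histone H3K4 demethylase Kdm5b by -3.35 ± 0.08. Kcnma1, Eya1 and Kdm5b were under the background level on average in Bin-2. Spats2 (-3.95 ± 0.08), Lyplal1 (-3.38 ± 0.11), Golm2 (-3.05 ± 0.13), Syde2 (-2.95 ± 0.11), Tmem108 (-2.84 ± 0.12) and P2ry14, a receptor for UDP-glucose (-2.91 ± 0.14), were likewise lower in Bin-2 with no overlap. Jchain, which joins the units of polymeric IgM and IgA, was strong in both lines, at 8.23, 8.34 and 8.41 in Bin-2 and 11.15, 11.31 and 11.42 in 8093 (-2.98 ± 0.06).

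The line difference was also taken for the start plates of each drug course, as contrasts of the same fit. The plates of the courses share no arrays, but both contrasts use the variance of all 12 arrays, so their calls are not independent. There were 2499 calls in the nilotinib starts (12.5%) and 3706 in the lonafarnib starts (18.6%), with 3 and 3 arrays each. Of these, 1842 were called in both, 73.7% of the calls from nilotinib plates and 49.7% of those from lonafarnib plates, and 1834 of them had the same direction. Of the 445 genes with 2-fold differences, 441 were called in both courses. They were chosen on the mean of both courses, so this agreement was largely fixed by the choice. Over all genes the line differences of the courses had a Pearson correlation of 0.779 and a Spearman correlation of 0.455. Limma called 0 genes for the difference of the line difference between the courses (lowest adjusted p 0.367), and 1 under a trended robust prior. The unadjusted p of this test was below 0.05 in 2156 genes, a share above the 0.05 expected if no gene differed. The 0 calls therefore do not show that the line difference was equal in both courses. Among the 445, 2 genes, singled out after their values were seen, differed by less than 0.5 in 1 course. Usp17ld, of a multi-copy family of deubiquitinases induced by cytokines, differed by -0.26 in the nilotinib starts and 3.31 in the lonafarnib starts, and the unplaced transcript AY036118 by 0.07 and 2.24. Both spread widely within a line, with SDs of 1.09 in Bin-2 and 2.07 in 8093 for Usp17ld, and their lines overlapped.

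**Figure D2:**
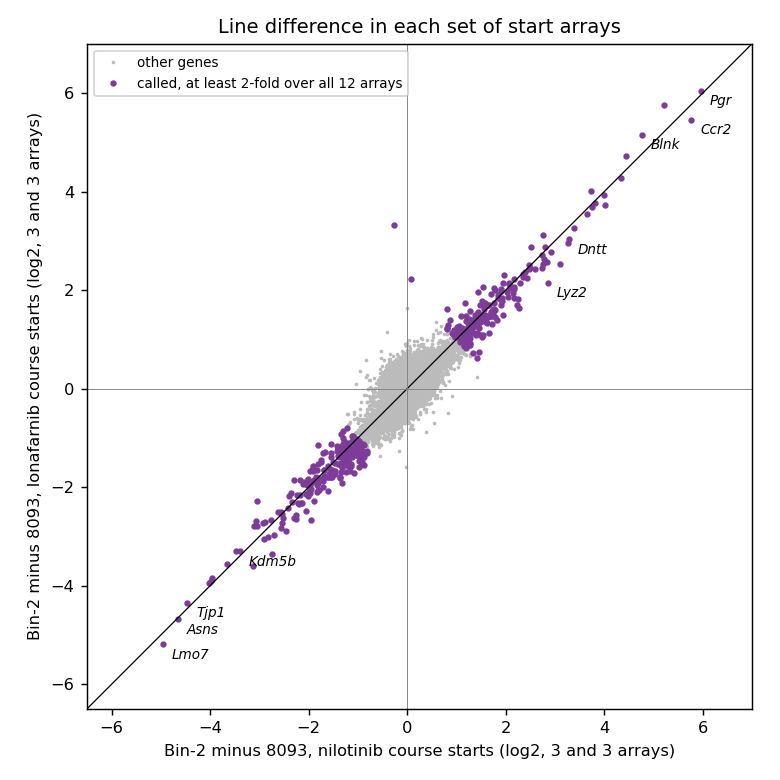
Bin-2 minus 8093 (log2) of 19938 genes in the nilotinib course starts (horizontal axis, 3 and 3 arrays) and in the lonafarnib course starts (vertical axis, 3 and 3 arrays), with the 445 genes called at 2-fold or more over all 12 arrays in purple and the line of equal difference in black. Most purple points lie close to that line, from Lmo7 at -4.96 and -5.19 to Pgr at 5.96 and 6.05, and 2 lie near 0 on the horizontal axis only.

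Gene lists written for this comparison are described by how many of their measured members were called, beside 22.7% of all 19938 genes and 32.8% of the 12944 genes with a mean above the background level in either line. Of 940 genes in any of the 47 lists, 388 were called (41.3%).

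Genes of the pre-B receptor and of B-cell signalling differed in both directions. Of 23 measured, 7 were higher in Bin-2, 6 were lower and 10 were not called, with a median of 0.05. Besides Blnk, the SRC-family kinase Blk was higher in Bin-2 (10.54 ± 0.10 in Bin-2 and 9.41 ± 0.09 in 8093, SD, n = 6 each), as were Pik3ap1 (BCAP), which links the receptor to PI3 kinase (1.04 ± 0.08), and the surrogate light chain genes Vpreb2 (0.70 ± 0.08) and Vpreb3 (0.64 ± 0.08). The scaffold Bank1 (-1.50 ± 0.10), the kinase Prkcb (-1.16 ± 0.07), which acts downstream of BTK, the inhibitory receptor Cd22 (-0.75 ± 0.11) and the receptor's signalling chain Cd79a (-0.73 ± 0.07) were lower in Bin-2. Syk (0.11), Btk (0.07) and Cd79b (0.05) were not called.

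Among 29 B-lineage transcription factors, 9 were higher in Bin-2 and 6 lower (median -0.02). Irf8, a factor of B cells and of monocytes, averaged 8.84 ± 0.11 in Bin-2 and 7.47 ± 0.09 in 8093, a difference of 1.37 ± 0.07. The inhibitors of E proteins went opposite ways, with Id2 at 0.81 ± 0.08 and Id3 at -1.32 ± 0.11, and Id3 was under the background level in all 6 Bin-2 arrays. Spib, an ETS factor of B cells, differed by -0.73 ± 0.10 and Foxo1, which drives the Rag genes and Il7r, by -0.49 ± 0.08. Rag2, the partner of Rag1, was higher in Bin-2 by 0.68 ± 0.11, and both Ku subunits of end joining, Xrcc6 (-0.61 ± 0.06) and Xrcc5 (-0.35 ± 0.06), were lower. In the recombination list as a whole, 5 of 13 genes were higher and 3 lower.

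Surface genes that mark stages of B-cell and progenitor development differed in 12 of 19 measured, 5 higher in Bin-2 and 7 lower. Kit, the receptor of stem cell factor and a gene of early progenitors and mast cells, had signals of 7.37, 7.64 and 7.77 in Bin-2, against 5.63, 5.71 and 5.93 in 8093 (1.88 ± 0.08). Il2ra, the CD25 chain that appears at the large pre-B stage, had 8.96, 9.12 and 9.43 in Bin-2, against 7.61, 7.72 and 7.91 in 8093 (1.43 ± 0.09). Both lines therefore carried Il2ra above background, with no overlap between them. Cd9 (-2.46 ± 0.16), Thy1 (-2.09 ± 0.08), Cd2 (-1.84 ± 0.16), Ly6d (-1.47 ± 0.12), which marks commitment to the B lineage, and Cd24a (-0.78 ± 0.08) were lower in Bin-2. Flt3 (0.06) and Ptprc (-0.07), the common leukocyte antigen, were not called. Of 11 measured immunoglobulin genes only Igha was called (0.93 ± 0.13), and Ighm averaged 5.44 in Bin-2 and 5.23 in 8093.

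Among fetal progenitor genes, 2 of 13 were called, both lower in Bin-2. Lin28b, the RNA-binding protein that keeps blood progenitors in a fetal state, had signals of 3.77, 3.90 and 4.18 in Bin-2, against 5.81, 6.23 and 6.56 in 8093 (-2.29 ± 0.11, adjusted p = 2.62e-09). It was under the background level in every Bin-2 array and above it in every 8093 array. Arid3a, which promotes the fetal B-cell programme, differed by -0.69 ± 0.10. The other 11 genes of this list were not called, among them Igf2bp3 (-0.12), Lin28a (-0.25) and Hmga2 (0.02), and the called share was 15.4%. In a separate list of 20 imprinted genes, 3 were lower and 1 higher. The fetal growth factor Igf2 of that list differed by -1.96 ± 0.08. Of 43 genes of the HOX clusters and cofactors, 6 were higher in Bin-2 and all 6 lie in the B cluster, the largest Hoxb4 (1.29 ± 0.07), Hoxb6 (1.24 ± 0.17) and Hoxb5 (1.17 ± 0.11). Hoxa9 (-0.04) and Meis1 (0.17) were not called.

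Markers of other cells that the cultures could hold were examined in the same way. Of 26 fibroblast genes, which would come from the feeder layer, 1 was higher and 3 were lower in Bin-2 (median -0.01). The mean signal of that list ran over 4.79 to 5.05 in Bin-2 arrays and 4.82 to 4.95 in 8093 arrays. Col1a1, the main collagen of fibroblasts, averaged 6.20 ± 0.21 in Bin-2 and 6.18 ± 0.16 in 8093 (SD, n = 6 each) and was not called, and Col3a1, Fn1 and Sparc differed by 0.02, 0.07 and -0.01. The lines overlapped in all 4 of these genes, and the 1 fibroblast gene higher in Bin-2 was Thbs1, thrombospondin 1 (2.21 ± 0.08), which platelets and macrophages also make.

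Macrophage genes were higher in Bin-2 in 8 of 17 measured and lower in 1, with a median of 0.32. Their mean signal ran over 5.49 to 5.89 in Bin-2 arrays and 5.02 to 5.18 in 8093 arrays. Csf1r, the receptor of macrophage colony-stimulating factor, had signals of 7.20, 7.44 and 7.55 in Bin-2, against 4.34, 4.74 and 4.89 in 8093 (2.73 ± 0.11). Mpeg1, a pore-forming protein of phagocytes, differed by 2.60 ± 0.11, and the lysozyme Lyz2 by 2.51 ± 0.31. Lyz2 varied between Bin-2 plates, from 6.00 to 8.03, against 4.45 to 5.25 in 8093. Adgre1, which encodes F4/80, went the other way, at 4.45, 4.63 and 4.84 in Bin-2 and 7.03, 7.13 and 7.31 in 8093 (-2.53 ± 0.08). Cd14 (4.36 in Bin-2 and 4.18 in 8093) and C1qb (4.46 and 3.93 in the same order) were under the background level in both lines, while Itgam (5.49 and 5.21, not called) was above it. Whether macrophages in the plates or the leukaemia cells made these transcripts was not tested, and the same holds for Ccr2, Cybb and Ctsg, which myeloid cells also use.

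Mast cell genes were higher in Bin-2 in 3 of 15 measured, Kit, Cpa3 and Mcpt8, and lower in 0. Their mean signal ran over 4.32 to 4.53 in Bin-2 arrays and 3.92 to 4.19 in 8093 arrays. Cpa3, a carboxypeptidase of mast cell granules and basophils, had signals of 6.09, 6.33 and 6.64 in Bin-2, against 4.22, 4.64 and 5.15 in 8093 (1.70 ± 0.13), and the basophil protease Mcpt8 5.36, 5.91 and 6.06 in Bin-2, against 3.98, 4.22 and 4.33 in 8093 (1.64 ± 0.10). Fcer1a, the chain that binds IgE, was under the background level in both lines (3.44 in Bin-2 and 3.20 in 8093). Granulocyte genes were called in 2 of 11, Ctsg and Ltf (-0.45 ± 0.13), with Elane (4.31 and 4.30) and Mpo (4.15 and 4.08, Bin-2 and 8093) under that level. Among T and NK cell genes, 5 of 20 were higher in Bin-2 and 4 lower. Zap70 (0.85 ± 0.11) and Cd5 (0.79 ± 0.10) were higher, while Gzma, a granule protease, was lower (-1.21 ± 0.12) and the T-cell receptor chain gene Cd3e was not called (-0.16 ± 0.11).

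The drug targets and the pathways around BCR/ABL were compared to ask how the lines stood before treatment. Abl1 differed by -0.19 ± 0.06 (adjusted p = 0.0414) and Bcr by -0.07 ± 0.09 (adjusted p = 0.626). The call of Abl1 was lost after quantile normalization (adjusted p = 0.121), after median centring and without single arrays of either line, and a second probeset of Bcr was called at -0.39. The signals of these probesets pool the endogenous genes with any transgene RNA they detect. Of 25 kinases and adaptors around ABL, BCR and SRC, 6 were higher and 6 lower in Bin-2, with a median of 0.03. Src itself was lower in Bin-2 (5.64 ± 0.21 in Bin-2 and 6.53 ± 0.17 in 8093, SD, n = 6 each). The docking proteins Gab1 (0.53 ± 0.12), Dok3 (0.49 ± 0.06) and Gab2 (0.42) were higher, and Crkl (0.03), Grb2 (0.11) and Abl2 (0.01) were not called.

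Among 19 RAS genes, exchange factors and GTPase-activating proteins, 4 were higher and 4 lower. Rasgrp3, an exchange factor that activates RAS below the B-cell receptor, had signals of 6.58, 6.67 and 7.09 in Bin-2, against 9.26, 9.36 and 9.60 in 8093 (-2.64 ± 0.09, adjusted p = 2.31e-10), while Rasgrp1 (0.64 ± 0.10) and Rasgrp2 (0.42 ± 0.07) were higher in Bin-2. Rasgrp4, the fourth factor of the family, was lower in Bin-2 (-0.80 ± 0.06), so that the family went in both directions. Feedback genes of ERK were higher in Bin-2 in 7 of 21 and lower in 4. Dusp4, a phosphatase that removes phosphate from ERK, averaged 7.96 ± 0.17 in Bin-2 and 6.12 ± 0.10 in 8093, and Dusp6 differed by 0.80 ± 0.10, while Spry2 was lower (-0.69 ± 0.09). Of 22 genes of prenylation, the modification that lonafarnib blocks, 6 were higher in Bin-2 and 2 lower. Neither subunit of farnesyltransferase was called (Fnta -0.10, Fntb 0.16). Lmna, a farnesylated protein of the nuclear lamina, was lower in Bin-2 (-1.72 ± 0.10), and Rhob, a GTPase that can carry the farnesyl lipid, was higher (0.74 ± 0.08).

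Of 26 cytokine receptors and JAK-STAT genes, 9 were higher in Bin-2 and 6 lower. Of the chains that bind the IL-3 in the medium, Il3ra was higher in Bin-2 (0.37 ± 0.08), the IL-3-specific beta chain of mice, Csf2rb2, was lower (-0.53 ± 0.11, adjusted p = 0.00324), and the shared beta chain Csf2rb was not called (-0.17 ± 0.08, adjusted p = 0.14). Il7r, the receptor on which normal pre-B cells depend, averaged 10.94 ± 0.09 in Bin-2 and 10.49 ± 0.13 in 8093, a difference of 0.46 ± 0.07. Il4ra (0.76 ± 0.07) was higher, and Il2rb (-1.52 ± 0.12) and the kinase Jak2 (-0.39 ± 0.06) were lower. Of 17 STAT5 targets, 5 were higher and 3 lower. The feedback inhibitors Socs1 (-0.63 ± 0.07) and Socs2 (-0.62 ± 0.07) were lower, Ccnd1, a D cyclin, was higher (0.77 ± 0.08), and Cish (-0.12 ± 0.09) and the kinase Pim1 (0.03) were not called.

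Genes of survival and arrest were called in both directions. Bcl2l11, which encodes BIM, the BH3-only protein that kills cells when kinase signalling stops, had signals of 7.67, 7.80 and 7.88 in Bin-2, against 8.85, 8.99 and 9.17 in 8093 (-1.22 ± 0.07, adjusted p = 3.55e-08). Bcl2, the survival protein it binds, was also lower in Bin-2 (8.23 ± 0.07 in Bin-2 and 9.02 ± 0.09 in 8093, SD, n = 6 each). Both a killer and a protector were thus lower, and Mcl1 (-0.02), Bcl2l1 (-0.22) and Bbc3 (-0.07) were not called. Of 18 genes of the BCL2 family, 1 was higher, Bid (0.46 ± 0.09), and 4 were lower, a called share of 27.8%. Of 23 p53 targets and regulators, 3 were higher and 8 lower, among them Zmat3 (-1.34 ± 0.10) and Btg2 (-1.16 ± 0.11), with Plk2 the other way (0.99 ± 0.10). Of 20 genes of Ink4a-ARF, RB and CDK control, 4 were higher and 4 lower. The higher ones were Ccnd1, Ccnd2 (0.44 ± 0.07), the cyclin-dependent kinase Cdk6 (0.39 ± 0.06) and the RB relative Rbl2 (0.40 ± 0.08), and the D cyclin Ccnd3 was lower (-0.46 ± 0.07). Cdkn2a, the Ink4a-ARF locus that BCR/ABL leukaemias often lose, was detected in both lines, at 5.38, 5.75 and 5.99 in Bin-2 and 6.15, 6.48 and 6.69 in 8093 (-0.72 ± 0.10). Its neighbour Cdkn2b was also lower in Bin-2 (-0.57 ± 0.13). Mtap, beside them, differed by -0.30 ± 0.10, a call (adjusted p = 0.0497) that was lost after quantile normalization (adjusted p = 0.0589) and without single arrays of either line. These 3 lie on chromosome 4. Myc differed by 0.24 ± 0.09 (adjusted p = 0.0852), and the call appeared after quantile normalization (adjusted p = 0.0391).

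Antigen presentation and interferon genes were called mainly towards Bin-2. Of 15 genes of MHC class I and peptide loading, 12 were higher in Bin-2 and 0 lower, with a median of 0.44 (0.57 in the nilotinib and 0.38 in the lonafarnib starts). Tap2, a subunit of the peptide transporter, had signals of 9.01, 9.16 and 9.44 in Bin-2, against 7.83, 8.04 and 8.20 in 8093 (1.18 ± 0.09), and its partner Tap1 averaged 9.97 ± 0.08 in Bin-2 and 9.03 ± 0.15 in 8093 (SD, n = 6 each). The class I heavy chain genes H2-T24 (1.68 ± 0.15) and H2-Q4 (0.97 ± 0.07) were also higher. B2m, the common light chain, differed by 0.26 ± 0.08, a call (adjusted p = 0.0421) that was lost without single arrays of either line, at adjusted p of up to 0.102. The heavy chain genes have near-identical copies that differ between mouse strains, so their signals are uncertain as measures of 1 gene between lines of different background.

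Of 31 interferon-stimulated genes, 16 were higher in Bin-2 and 1, Ddx58 (-0.36 ± 0.07), was lower, with a median of 0.29, and 28 of 31 had a positive difference. Besides Aim2, the largest were Mx2 (1.08 ± 0.18), Gbp3 (0.98 ± 0.08), the RNA sensor regulator Dhx58 (0.94 ± 0.09) and Oasl1 (0.88 ± 0.12). Mx2 was under the background level on average in both lines (4.19 in Bin-2 and 3.10 in 8093). Ifit1 (0.35), Irf7 (0.27) and Rsad2 (0.22) were not called. Among 10 genes of MHC class II presentation, 5 were higher and 2 lower. H2-Eb2 (2.38 ± 0.14), H2-Ob (1.38 ± 0.07) and H2-DMa (1.20 ± 0.09) were higher, the invariant chain Cd74 (-1.10 ± 0.12) and H2-Aa (-0.51 ± 0.12) were lower, and their master regulator Ciita was not called (-0.03).

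The GIMAP genes, a cluster of GTPases of lymphocytes, were higher in Bin-2 in 6 of 8 and lower in 0, with a median of 0.98. Gimap4 had signals of 11.15, 11.31 and 11.41 in Bin-2, against 9.04, 9.20 and 9.32 in 8093 (2.10 ± 0.07), and Gimap7 8.52, 8.82 and 9.03 in Bin-2, against 6.62, 6.72 and 6.86 in 8093 (2.10 ± 0.08). Gimap3 (2.03 ± 0.22) was under the background level on average in 8093. The cluster did not move as a block, since Gimap1 (-0.07 ± 0.09) and Gimap5 (0.26 ± 0.10) were not called.

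**Figure D3:**
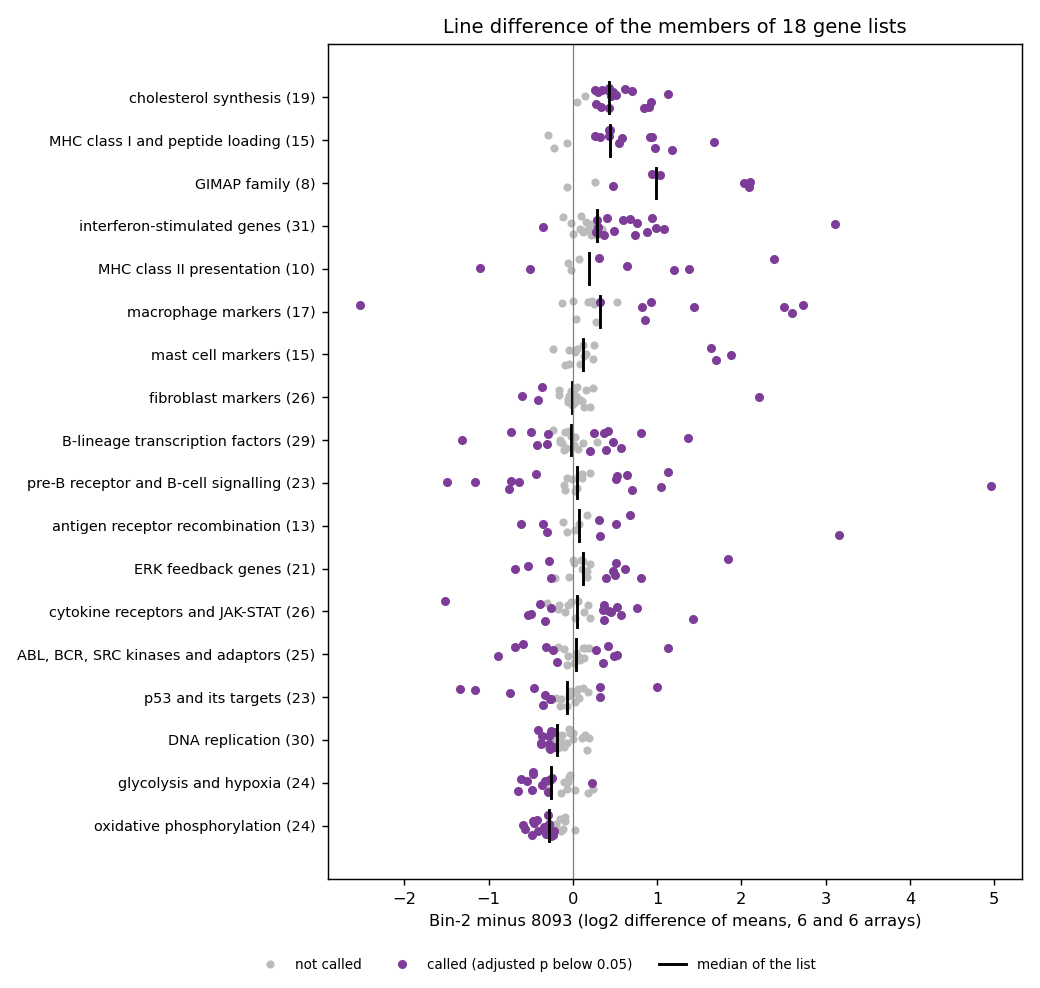
Bin-2 minus 8093 (log2, horizontal axis) of each measured member of 18 gene lists (rows, number of measured genes in brackets), with called genes in purple, others in grey and the list's median as a black tick. The members of cholesterol synthesis lie to the right of 0, with a median of 0.43, those of oxidative phosphorylation nearly all to the left, with a median of -0.29, and the B-lineage lists spread to both sides.

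Cholesterol synthesis was the list with the largest share of called genes. Of 19 measured, 17 were higher in Bin-2 and 0 lower, all 19 had a positive difference and the median was 0.43. Sc5d, which acts late in the pathway, averaged 8.53 ± 0.19 in Bin-2 and 7.39 ± 0.39 in 8093 (SD, n = 6 each). Hmgcs1, the synthase that makes HMG-CoA, had signals of 9.59, 9.68 and 9.78 in Bin-2, against 8.58, 8.77 and 8.95 in 8093 (0.93 ± 0.06, adjusted p = 1.01e-07). Insig1, the sterol-sensing regulator of the pathway, differed by 0.90 ± 0.06, lanosterol synthase Lss by 0.84 ± 0.08, Msmo1 by 0.70 ± 0.06 and squalene epoxidase Sqle by 0.43 ± 0.07. Srebf2, the transcription factor of the pathway, was itself higher (0.35). The medians were 0.46 in the nilotinib starts and 0.44 in the lonafarnib starts.

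Asparagine synthetase, Asns, which makes asparagine from aspartate and glutamine and whose low level makes leukaemia cells sensitive to asparaginase, had signals of 4.54, 4.77 and 4.82 in Bin-2, against 9.13, 9.40 and 9.53 in 8093. The difference of -4.67 ± 0.08 (adjusted p = 3.35e-13) was -4.65 in the nilotinib starts and -4.68 in the lonafarnib starts, and Bin-2 stood near the background level. Asns is a target of ATF4, the factor induced when amino acids are short. Of 23 genes of the unfolded protein and ATF4 responses, 10 were lower in Bin-2 and 4 higher. The other ATF4 targets that were lower differed far less, with Trib3 at -0.82 ± 0.08, Mthfd2 at -0.67 ± 0.09, Psat1 at -0.39 and Atf4 itself at -0.33 ± 0.08. Slc7a11, which brings in cystine and is also a target of ATF4, went the other way. It had signals of 7.86, 8.12 and 8.23 in Bin-2, against 4.16, 4.30 and 4.49 in 8093 (3.79 ± 0.08, adjusted p = 1.3e-12), while Slc3a2, the chain it pairs with, differed by -0.38 ± 0.07. The 2 genes of largest difference in this list were therefore of opposite sign, Asns at the background level in 1 line and Slc7a11 in the other.

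The promoters of 2 of these genes are shown because each holds a known element of its pathway. The windows are the 250 bases before the transcription start given by RefSeq on GRCm38.p6, in the direction of the gene and with the element in capitals, for Asns chr6:7693210-7693459 on the minus strand and for Hmgcs1 chr13:119690101-119690350 on the plus strand.
Asns: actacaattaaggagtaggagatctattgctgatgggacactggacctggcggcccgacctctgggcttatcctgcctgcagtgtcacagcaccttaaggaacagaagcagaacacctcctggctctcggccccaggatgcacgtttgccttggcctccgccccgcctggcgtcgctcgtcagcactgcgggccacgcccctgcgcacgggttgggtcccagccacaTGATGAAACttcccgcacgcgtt
Hmgcs1: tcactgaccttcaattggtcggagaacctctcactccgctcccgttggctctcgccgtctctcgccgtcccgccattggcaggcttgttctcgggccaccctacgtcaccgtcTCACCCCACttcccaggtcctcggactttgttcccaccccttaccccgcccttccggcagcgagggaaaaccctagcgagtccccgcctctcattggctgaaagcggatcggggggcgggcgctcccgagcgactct
The amino acid response element was searched as TGATGAAAC and the sterol regulatory element as TCACNCCAC, on both strands, and they do not overlap. The first was found in 0.213% of 32851 RefSeq promoter windows of the same length, or 0.189% of the 27025 genes with a window. It was found in 1 of 22 genes of the unfolded protein and ATF4 list with a window, Asns. The second was found in 1.05% of windows, or 1.22% of the genes with a window, and in 1 of 16 cholesterol genes with a window, Hmgcs1. A match describes the letters of the reference genome, and neither line was sequenced here.

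Genes of energy metabolism were called towards 8093 by small amounts. Of 24 genes of oxidative phosphorylation, 16 were lower in Bin-2 and 0 higher, with a median of -0.29. Ndufa9, a subunit of complex I, averaged 9.27 ± 0.12 in Bin-2 and 9.86 ± 0.12 in 8093 (SD, n = 6 each), and Sdhb, of complex II, 8.12 ± 0.15 in Bin-2 and 8.60 ± 0.24 in 8093. The list's median was -0.16 in the nilotinib starts, with 3 genes called, and -0.41 in the lonafarnib starts, with 18. Glycolysis and hypoxia genes were lower in 12 of 24 and higher in 1, with medians of -0.24 in the nilotinib and -0.26 in the lonafarnib starts, among them Aldoa (-0.65 ± 0.09), Pgam1 (-0.62 ± 0.07), Pkm (-0.54 ± 0.08) and Ldha (-0.48 ± 0.09). DNA replication genes were lower in 10 of 30 and higher in 0 (median -0.19), with 0 called by limma in the nilotinib starts and 12 in the lonafarnib starts. The test of the difference between the courses called 0 of all 19938 genes, so it cannot single out these lists.

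Metallothioneins, which bind zinc and copper, were lower in Bin-2. Mt2 had signals of 4.59, 5.19 and 5.71 in Bin-2, against 7.61, 7.82 and 8.04 in 8093 (-2.67 ± 0.13), and Mt1 averaged 8.16 ± 0.22 in Bin-2 and 10.08 ± 0.08 in 8093 (SD, n = 6 each). Both neighbours on chromosome 8 were thus lower with no overlap. Gstm1, a glutathione transferase, differed by -1.45 ± 0.10, while Mgst2 (0.90 ± 0.06) and Gpx1 (0.64 ± 0.09) were higher. In adhesion and homing, 10 of 34 genes were higher in Bin-2 and 8 lower. Itga4, the alpha-4 integrin by which B-cell precursors hold to stroma, averaged 10.44 ± 0.10 in Bin-2 and 9.25 ± 0.10 in 8093, and Alcam differed by 1.32 ± 0.09. The epithelial adhesion genes Cdh1 (-1.43 ± 0.08) and Epcam (-1.34 ± 0.08) were lower in Bin-2, and Cxcr4, the receptor for the marrow chemokine CXCL12, differed by 0.25 ± 0.06. Galectins were called in 1 of 9, Lgals3bp (0.37 ± 0.07), a protein that binds them, and Lgals3 was not (0.18 ± 0.10, adjusted p = 0.251). None of 32 germline genes was called by limma, beside 22.7% of all genes, and 27 of them were under the background level in both lines.

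Genes known to vary between inbred strains were examined because the lines differ in background. Of 16 measured, 7 were higher in Bin-2 and 5 lower. Klrd1, the CD94 receptor of NK cells, which some inbred strains lack, had signals of 3.31, 3.53 and 3.81 in Bin-2, against 6.08, 6.48 and 6.65 in 8093 (-2.91 ± 0.11), and Apobec3, an antiviral deaminase with strain-specific forms, 7.44, 7.54 and 7.64 in Bin-2, against 9.28, 9.33 and 9.46 in 8093 (-1.81 ± 0.07). The inflammasome gene Nlrp1b differed by 1.35 ± 0.08 and Gpnmb by 1.32 ± 0.21. Nnt, part of which is deleted in C57Bl/6J mice, averaged 9.11 ± 0.02 in Bin-2 and 8.84 ± 0.07 in 8093. Where its probes lie relative to the deleted exons was not examined, so this value does not check the background of 8093. H2-Ea, which C57Bl/6 mice do not transcribe, was under the background level in both lines (4.48 and 4.17, Bin-2 and 8093). Sequence differences under the probes can change a signal without a change in transcript, and this was not tested. Xist, the RNA of the inactive X chromosome, was strong in both lines (11.39 ± 0.08 in Bin-2 and 10.88 ± 0.12 in 8093), and the Y-linked genes Uty (2.75 and 2.95) and Eif2s3y (2.32 and 2.23, Bin-2 and 8093) were under the background level. The Y-linked Kdm5d was called higher in Bin-2 (0.31 ± 0.09) but also under that level, at 3.20 in Bin-2 and 2.89 in 8093. Sry was the Y-linked gene of the list above it, at 5.93 in Bin-2 and 5.94 in 8093, and was not called.

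Differences were also summarised by chromosome over genes above the background level, an analysis added after the counts per chromosome were seen. The planned search for runs of at least 4 neighbouring genes, all called in 1 direction at 2-fold or more, found 0. On chromosome 14, 273 of 468 genes were lower in Bin-2 and 20 higher, 62.6% called in all, and 82.1% had a negative difference. The median was -0.33, a 1.25-fold lower level in Bin-2. Each array's median on this chromosome, after centring each gene on its mean, ran from -0.20 to -0.15 in Bin-2 and from 0.13 to 0.20 in 8093. The median was -0.31 in the nilotinib starts and -0.35 in the lonafarnib starts. On the other autosomes except 4, and on X, the medians ran from -0.02 to 0.02.

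**Figure D4:**
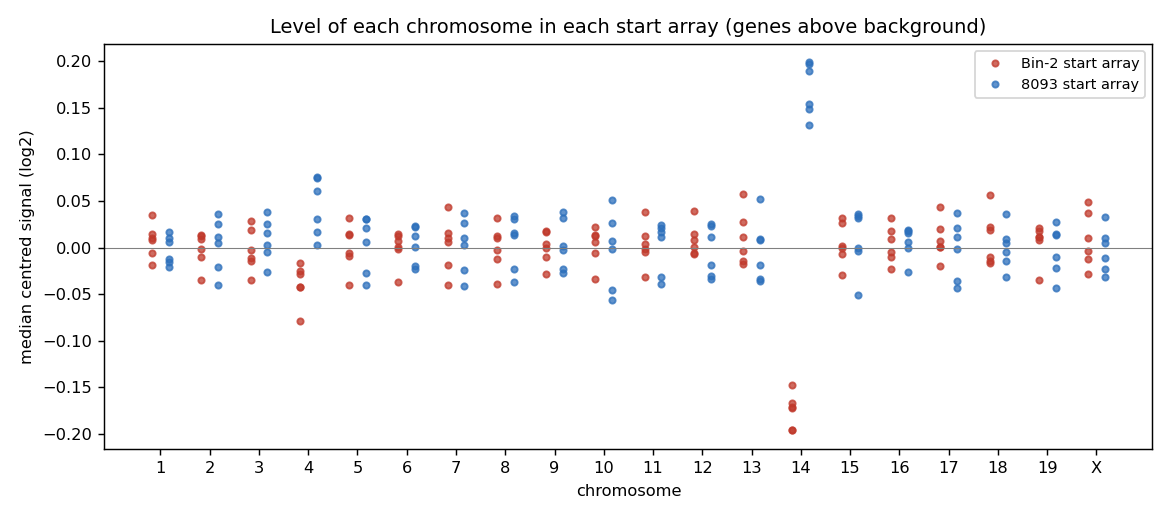
Median signal of the genes above background on each chromosome (horizontal axis) in each start array, after each gene was centred on its mean over the 12 arrays (log2, vertical axis), with Bin-2 arrays in red on the left and 8093 arrays in blue on the right of each chromosome. The lines are apart on chromosome 14, with all Bin-2 arrays at -0.15 or lower and all 8093 arrays at 0.13 or higher, and less so on chromosome 4.

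Chromosome 14 was low along its whole length. In blocks of 20 neighbouring genes, 20 of its 24 blocks had a median of -0.2 or lower, of 29 such blocks among 655 in the genome. Lmo7, Kcnma1 and Pcdh9, among the largest differences, lie on this chromosome, but 22 genes with 2-fold lower levels there were only a small part of the 273. Not every gene followed, since Blk (1.13 ± 0.07), Ctsg, Mcpt8 and the transporter Abcc4 (0.87 ± 0.08) of chromosome 14 were higher in Bin-2. On chromosome 4 the low blocks were 7 of 42, all next to each other. This stretch, from Ddx58 to Zfp618, held 140 genes, 99 lower in Bin-2 and 2 higher, with a median of -0.59. Its array medians ran from -0.32 to -0.25 in Bin-2 and from 0.26 to 0.35 in 8093. Outside chromosomes 4 and 14, 1874 genes were higher and 1763 lower among 11605, 31.3% called. DNA copy number was not measured, and why the stretches differ was not tested.

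**Figure D5:**
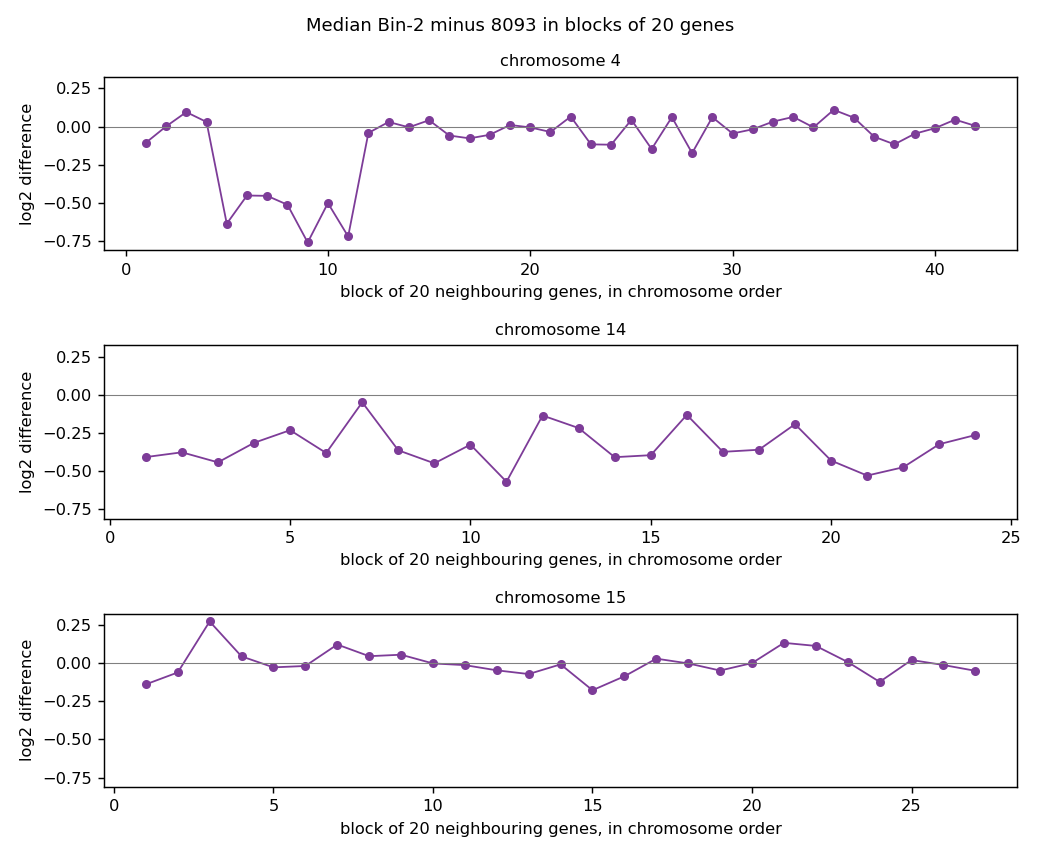
Median Bin-2 minus 8093 (log2, vertical axis) in blocks of 20 neighbouring genes above background, in order along chromosomes 4, 14 and 15 (horizontal axes, block number). On chromosome 4 a stretch of 7 blocks lies far below 0 with sharp edges (140 genes, median -0.59), on chromosome 14 all blocks lie below 0 (median over genes -0.33), and chromosome 15, shown for comparison, has blocks on both sides of 0.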

How the data were processed

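The authors deposited a matrix of probeset signals that span 1.02 to 14.375, a range that fits log2 intensities and not linear ones. The arrays were Affymetrix Mouse Gene 1.0 ST arrays. RNA was extracted with Trizol and labelled as biotinylated cRNA, per the labels' protocols. Partek is named in the submitters' processing notes, without its role. How background was corrected and arrays were normalized is not given in the sources used here. Lines, courses, doses and culture conditions are per the labels, where lonafarnib is in uM in the treatment protocol, as printed here, but in mM in the design text.

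Of 35557 probesets, 21789 had 1 gene symbol and were used, 1621 had several and 12147 were not listed in the platform annotation. For 999 genes with more than 1 probeset, the brightest on average across the 34 arrays stood for the gene, leaving 19938 genes. In 1 gene, Ccdc180, other probesets were called in opposite directions. Limma 3.58.1 in R 4.3.3 (lmFit, eBayes) fitted 4 group means (line by course) over 12 arrays, with 8 residual and 5.03 prior degrees of freedom. The line difference was the mean over both courses. Two-sided p-values were adjusted by Benjamini-Hochberg over all genes of a comparison. The fit was checked on simulated data. Arrays were not paired by number. The number of arrays limits the precision.

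Members and the 47 gene lists were chosen with earlier results of these data known. Named were the 15 genes of largest difference each way among called genes with no overlap between lines (predicted genes, small RNAs, receptor families and immunoglobulin segments left out), up to 3 called genes each way per list, and fixed genes. Further list members, Usp17ld and AY036118 were chosen after their values were seen. Alternatives changed the normalization, the prior, the filter, the probeset, the arrays fitted and the array weights. Chromosomes and promoters came from RefSeq tables (GRCm38.p6).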

Additional observations from a re-analysis of the deposited data

Results flagged for a closer look

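In the 230 genes named, each line's 6 arrays were searched for 1 array that stood apart from the other 5, and 20 of 460 sets of 6 arrays had one. Chance flags about 1 in 20 groups. In Bin-2, lonafarnib start replicate 1 had a Ccnd1 signal of 8.15 (others 7.90 to 7.99), an Eif2s3y signal of 1.89 (others 2.31 to 2.48) and a Zmat3 signal of 5.51 (others 6.03 to 6.33). Lonafarnib start replicate 2 of Bin-2 was low in Dhx58 at 6.45 (others 6.88 to 7.11), Fn1 at 4.74 (others 4.99 to 5.09), Id2 at 7.67 (others 7.97 to 8.13) and Socs2 at 10.6 (others 10.7 to 10.8), and replicate 3 in Mcpt8 at 5.36 (others 5.84 to 6.06). Nilotinib start replicate 1 of Bin-2 was low in P2ry14 at 4.67 (others 5.35 to 5.66), and replicate 3 was high in Nrg4 at 8.38 (others 8.05 to 8.17), Sqle at 9.2 (others 8.9 to 9) and Vpreb3 at 10.6 (others 10.3 to 10.4).

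In 8093, lonafarnib start replicate 1 had a Ccnd2 signal of 11 (others 11.2 to 11.4) and a Jak2 signal of 8.76 (others 8.48 to 8.58), replicate 2 an Fnta signal of 6.79 (others 7.04 to 7.12), and replicate 3 signals of 8.06 in P2ry14 (others 8.26 to 8.36) and 7.22 in Spib (others 6.91 to 7.01). Nilotinib start replicate 1 of 8093 was high in Elane at 4.5 (others 4.2 to 4.31), and replicate 2 was low in Ccr2 at 4.25 (others 4.67 to 4.86) and high in Ifit1 at 4.10 (others 3.02 to 3.38).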

How the results depend on the processing

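The 4517 calls over all arrays ran from 3892 to 5089 under 11 other settings. The 3892 came from leaving the genes on chromosomes 4 and 14 out of the count, with the processing unchanged. Under the 10 settings that changed the processing, calls higher in Bin-2 ran from 1889 to 2380 and calls lower from 2120 to 2709. Under 10 settings each, calls of at least 2-fold ran from 419 to 471 and the median on chromosome 14 from -0.34 to -0.31. Limma called 0 genes for the difference between the courses, and 1 under a trended robust prior. The 106 genes of 2-fold difference above background in 1 line were 60 with the 90th percentile of olfactory receptor genes as the background level and 180 with the 99th. When each array was left out in turn, the calls ran from 3919 to 4730, in the nilotinib starts from 1905 to 2571 and in the lonafarnib starts from 2527 (without 8093 replicate 1) to 4040. With the replicate number as a block there were 4629 calls, 2513 in the nilotinib and 3838 in the lonafarnib starts. Of 18 pairs of arrays of equal number, 5 had deviations correlated above 0.1. Their median was 0.04, against -0.02 in pairs of other numbers. Whether arrays of equal number shared a batch was not tested. Of the 230 genes named, 210 kept their call and direction in all 22 settings. The others included Abl1, Mtap, B2m, Ltf, Kdm5d, Myc (called after quantile normalization, adjusted p = 0.0391), Irf7, Usp17ld and AY036118, all with small differences or a wide spread. C1qb gained a call under the block (adjusted p = 0.0265). With all 34 arrays in the limma fit, Gimap5 gained a call (adjusted p = 0.0444). In that fit Cxcr4, Gab1, H2-Aa, H2-Ea and Tlr2 lost theirs, at adjusted p of 0.25, 0.0643, 0.104, 0.172 and 0.508. With 1 leukaemia per line and 6 arrays, small differences and signals near background are the least certain.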

Other observations

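The calls in further lists stand beside 22.7% of all genes and 32.8% of genes above the background level. Of 29 genes of the Notch and WNT pathways, 8 were lower in Bin-2 and 1 higher (31% called). Fzd7, a WNT receptor, averaged 4.68 in Bin-2 and 5.96 in 8093 (-1.28 ± 0.07), Jag2, a Notch ligand, differed by -0.76 ± 0.09 and the Notch target Hes1 by -0.75 ± 0.08, while the receptor Notch2 was higher (0.34 ± 0.06). Among 24 regulators of DNA methylation and chromatin, 9 were lower and 5 higher (58.3% called). Besides Kdm5b, the DNA methyltransferase Dnmt3b (-0.82 ± 0.06) and Uhrf1 (-0.50 ± 0.07), a factor of maintenance methylation, were lower. The histone methyltransferase Ezh1 was higher (0.54 ± 0.08), and the DNA methyltransferase Dnmt1 was not called (-0.09). Of 28 ribosome biogenesis genes, 7 were lower and 1 higher (28.6% called), and of 25 mitosis genes 7 were lower and 2 higher (36% called), all of them above the background level. Ribosome biogenesis genes called lower were 2 in the nilotinib starts (median -0.08) and 7 in the lonafarnib starts (median -0.15). For mitosis genes these numbers were 0 (median -0.05) and 7 (median -0.22).

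Of 29 genes better known from epithelia and neurons, 1 was higher in Bin-2, 5 were lower and 23 were not called (20.7% called). The AMPA glutamate receptor subunit Gria3 averaged 9.01 in Bin-2 and 6.16 in 8093 (2.84 ± 0.07), and its family member Gria2 7.38 in Bin-2 and 9.31 in 8093 (-1.92 ± 0.11). The synaptic adhesion gene Nrxn3 was lower too (-2.19 ± 0.07). Of 23 innate sensors and NF-kB genes, 5 were higher and 4 lower. The toll-like receptors Tlr7 (0.90 ± 0.10) and Tlr6 (0.54 ± 0.09) were higher in Bin-2, Tlr2 was lower (-0.27 ± 0.07), and the cytokine lymphotoxin, Lta, was lower (-1.62 ± 0.10). In the PI3 kinase list, 5 of 19 genes were higher and 4 lower, among them the PI3 kinase inhibitor Pik3ip1 (1.16 ± 0.08) and the phosphatase Inpp4b (-0.99 ± 0.09).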
